A study of Mus musculus with 90 samples.

Results

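The nuclear genes of the mitochondrial respiratory chain were taken as the protein-coding mouse genes whose symbols begin with Nduf, Sdh, Uqcr, Cox4 to Cox8 or Atp5 and whose mean level reached 1 CPM (counts per M, the count scaled to a library of 1 M counts, with M the mega prefix) in the striatum or in the cortex. Of 97 genes with such symbols among the 38561 gene IDs measured, 93 met the rule. They comprised 44 genes of complex I, 8 of complex II, 8 of complex III, 17 of complex IV and 16 of complex V. The gene nearest to the limit on the inside was Cox7a1, with a mean of 0.845 CPM in the striatum and 1.001 CPM in the cortex. The nearest outside was Cox8b, with 0.355 and 0.332 CPM. The others left out were Cox7b2 (0.215 and 0.176 CPM), Atp5g2 and Cox8c, the last pair being listed at or near 0. Whether Atp5g2 is silent or its reads were counted under another ID cannot be told from these values. RNA was sequenced from the striatum and the cortex of the right hemisphere of 45 C57BL6/J mice aged 9 months, which gave 90 libraries. Some mice were wild type (WT). The others were homozygous for the Q175 allele, in which a lengthened CAG tract has been knocked into mouse Htt in every cell, as a model of Huntington's disease. All of them had received either vehicle or the PDE10A phosphodiesterase inhibitor PF-02545920 by mouth once daily from 5 weeks of age. Vehicle was given to 9 WT mice and 7 homozygous Q175 mice. Daily doses of 0.32 mg/kg (10 mice), 1.0 mg/kg (10 mice) and 3.2 mg/kg (9 mice) were given to homozygous Q175 mice, and every group held 5 females. None of the 45 mice was a WT mouse given the compound. Mice are named by group, sex and number, so that F1 is female 1 of its group.

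The respiratory chain passes electrons from NADH (through complex I) and from succinate (through complex II) to ubiquinone, then through complex III and cytochrome c to complex IV, which reduces oxygen. Complexes I, III and IV pump protons, and complex V, the ATP synthase, uses the proton gradient to make ATP. Most subunits are encoded in the nucleus, and a small set in mitochondrial DNA, which holds none of complex II. Neurons of the striatum depend heavily on this pathway. Inhibitors of complex II, such as the fungal toxin nitropropionic acid, damage the striatum selectively in rodents, and impaired respiration has long been studied in Huntington's disease.

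Libraries held 30.5 M to 44.9 M counts in the striatum and 37.2 M to 45.8 M counts in the cortex. The tissue labels were in keeping with marker genes in the WT mice: all 12 medium spiny neuron markers were higher in striatum than in cortex (median log2 fold change 3.70) and all 10 excitatory cortical neuron markers were lower (median -3.45). The excitatory markers summed to 36.1 to 501 CPM in WT striatum and 92.4 to 346 CPM in Q175 vehicle striatum, against 1844 to 2063 CPM in WT cortex. Striatal libraries thus differed widely in them, and the part of this spread in the member differences was not tested. Htt, the gene with the knock-in, was lower in Q175 vehicle mice by 0.78 on the log2 scale in the striatum and by 0.81 in the cortex. In the cortex, libraries F1 and F4 of the 1.0 mg/kg group stood apart from the other 43. Their counts leaned towards short genes, with slopes of -0.125 and -0.116 log2 units per doubling of gene length, against -0.0300 to 0.0277 in the others. Mitochondrial mRNA made up 10.04% and 10.07% of their counts. The median member in them lay 0.286 and 0.247 log2 units above its mean over the cortex libraries. In the striatum, WT libraries F1 and F5 had length slopes of -0.0534 and -0.0391, outside the -0.0326 to 0.0224 of the others, and member medians 0.186 and 0.0911 log2 units above the mean. Member counts of the striatal genotype comparison are given with and without WT F1 and F5. Those at 1.0 mg/kg in the cortex are given with and without F1 and F4 of that group. Comparisons between the tissues were not refitted without WT F1 and F5. The members had a median GC content of 51.35% and a median length of 763 bases, against 50.56% and 2554 bases over all genes tested. In a dissected tissue, fewer cells of a type and less RNA per cell cannot be told apart. Many members share part of their locus with a gene on the opposite strand, among them Ndufs3 with Kbtbd4, Cox6a2 with Itgad, Sdhaf2 with Cpsf7, Ndufb6 with Smim27, Ndufa3 with Tfpt, Uqcrb with Gm10767 and Atp5d with Cbarp. Whether the counting used strand is not given in the sources used here, so values of such genes are uncertain.

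Many nuclear respiratory chain genes are known to be driven by the transcription factors NRF1, GABP (of the ETS family) and YY1, so promoters of 4 genes called between the genotypes are shown as examples, with the matches found in them. RefSeq promoters on GRCm38.p6, from 250 bases before to 50 bases after the start, were at hand for 75 of the 93 members. The NRF1 motif (GCGCA, any base, then GCGC) occurred on either strand in 26.7% of these 75, against 5.19% of all 27025 genes with a promoter. The ETS motif CCGGAAG occurred in 28% against 9.93%, and the YY1 motif AAGATGGC in 13.3% against 3.19%. Unlike the members, the 27025 genes were not limited to those expressed in these tissues, so the shares are a description. Ndufs3 (chr2:90904672-90904971, minus strand) held the ETS motif on both strands, Sdha (chr13:74350191-74350490, minus strand) several NRF1 motifs, and Ndufs4 (chr13:114388045-114388344, minus strand) the YY1 motif within the bases after its start. Ndufb10 (chr17:24724374-24724673, minus strand) held no exact match to any of these motifs in the window. Among other members called between the genotypes and not printed, Atp5b, Atp5g1, Cox6b2 and Ndufa1 held none either. Ndufa5 and Ndufb4 held the NRF1 motif. The printed genes are therefore not a measure of how often called members hold these motifs. Stretches close to the NRF1 motif, such as acgcaggcgc in Ndufb10, were not counted. Capitals mark the motifs, and each sequence is printed on the strand of its gene.
Ndufs3: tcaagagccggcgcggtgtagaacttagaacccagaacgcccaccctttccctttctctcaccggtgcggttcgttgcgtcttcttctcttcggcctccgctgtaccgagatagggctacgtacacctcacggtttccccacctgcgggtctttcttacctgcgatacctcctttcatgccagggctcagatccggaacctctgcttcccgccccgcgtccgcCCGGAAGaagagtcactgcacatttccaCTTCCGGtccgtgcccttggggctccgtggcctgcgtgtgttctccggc
Ndufs4: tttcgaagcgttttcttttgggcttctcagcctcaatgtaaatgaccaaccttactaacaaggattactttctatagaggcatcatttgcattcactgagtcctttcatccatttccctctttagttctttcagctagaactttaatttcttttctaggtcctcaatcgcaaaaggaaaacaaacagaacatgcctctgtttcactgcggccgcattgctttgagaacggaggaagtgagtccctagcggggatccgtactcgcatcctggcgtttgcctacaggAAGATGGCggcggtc
Ndufb10: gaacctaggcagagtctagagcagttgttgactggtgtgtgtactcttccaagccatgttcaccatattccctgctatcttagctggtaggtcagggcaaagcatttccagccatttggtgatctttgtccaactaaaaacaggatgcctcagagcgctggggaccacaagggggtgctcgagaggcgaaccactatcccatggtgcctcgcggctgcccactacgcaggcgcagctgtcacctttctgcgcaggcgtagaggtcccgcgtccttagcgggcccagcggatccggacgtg
Sdha: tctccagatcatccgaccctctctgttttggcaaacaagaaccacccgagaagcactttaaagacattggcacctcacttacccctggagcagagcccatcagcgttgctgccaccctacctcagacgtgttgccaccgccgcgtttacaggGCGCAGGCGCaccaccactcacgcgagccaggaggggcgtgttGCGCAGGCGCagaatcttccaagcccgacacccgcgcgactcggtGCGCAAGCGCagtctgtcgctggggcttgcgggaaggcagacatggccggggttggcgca
Ndufs3, Ndufs4 and Ndufb10 were lower in Q175 striatum and Sdha was higher, as described below by complex. A match of letters is a description of the window and not a bound site.

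Levels per length were compared between genes as FPKM (fragments per kilobase of transcript, scaled to library size) in the 9 WT mice. In the striatum Atp5b, the catalytic beta subunit of the ATP synthase, was the highest member with 574 to 651 FPKM over the mice and a median of 606. The next were subunits of complex IV: Cox4i1 with a median of 475 FPKM, Cox6a1 with 445 FPKM and Cox8a with 436 FPKM. In the cortex the order of the leading genes was Atp5b (566 FPKM), Cox8a (537 FPKM), Cox4i1 (465.8 FPKM) and Cox6a1 (461 FPKM). The ranges of Cox4i1 (413 to 535 FPKM in the striatum) and Cox6a1 (375 to 543 FPKM) overlapped, so their order was within the spread between mice. Summed over its members, complex IV reached a median of 3058 FPKM in WT striatum, complex V 2994 FPKM, complex I 2951 FPKM, complex III 921 FPKM and complex II 363 FPKM. The sums of complexes I, IV and V overlapped between mice. The isoforms of complex IV that are known from other tissues were far lower than their common counterparts. Cox6a2, the heart and muscle isoform, had a median of 6.87 FPKM in WT striatum, Cox6b2, known from testis, 3.51 FPKM, and Cox4i2, an isoform known from lung and induced by low oxygen, 3.38 FPKM. Cox7a1, a muscle isoform, was lowest of all with 1.801 FPKM. Among the complex II subunits Sdha, which binds the flavin cofactor and oxidizes succinate, had a median of 139 FPKM, the iron-sulfur subunit Sdhb 82.7 FPKM, and the membrane anchors Sdhc and Sdhd 46.2 and 52.8 FPKM. Assembly factors of complexes I and II were low as well, from a median of 2.70 FPKM for Sdhaf3 to 18.8 FPKM for Ndufaf3.

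**Figure D1:**
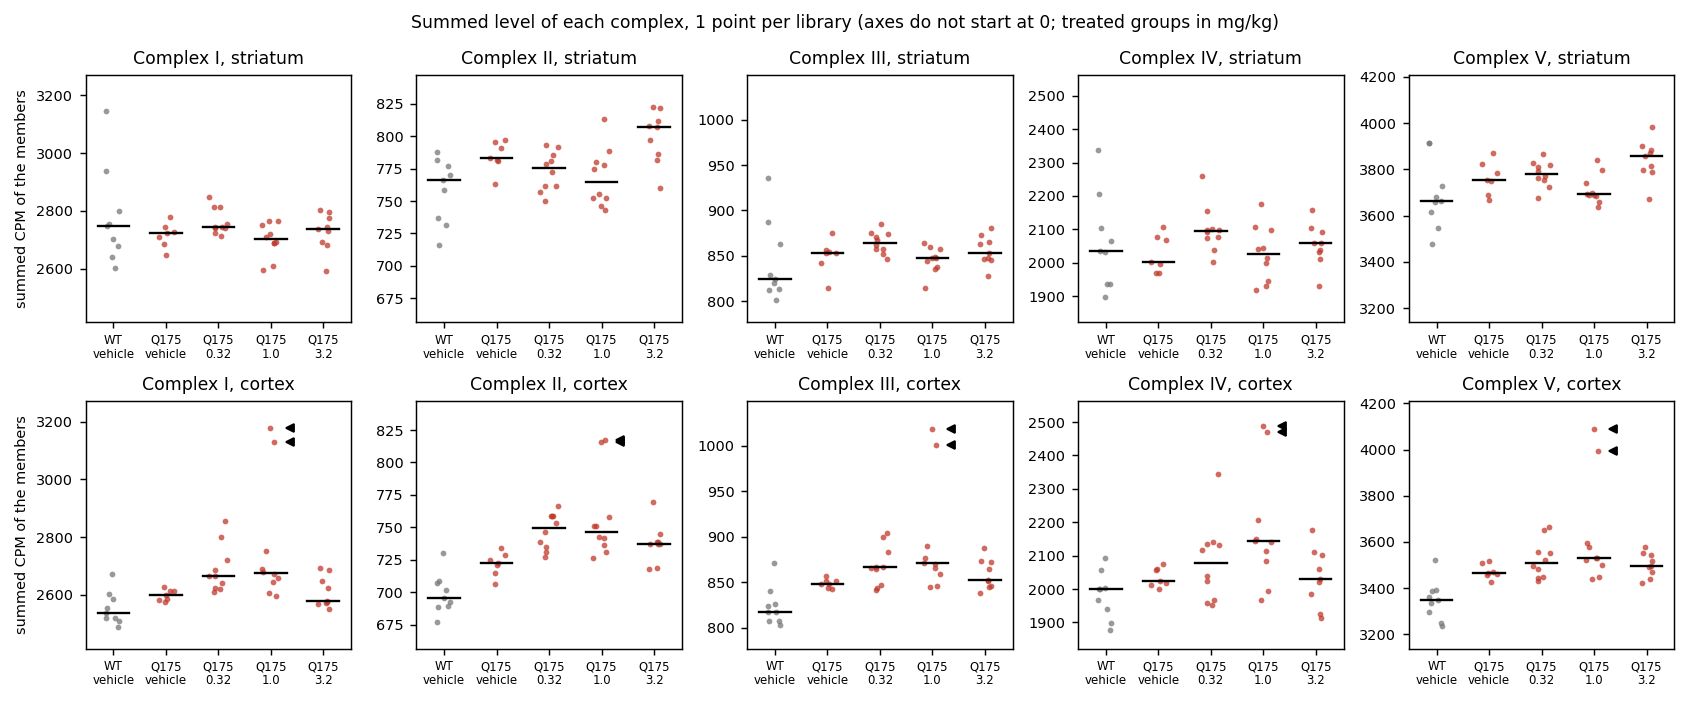
Summed CPM of the members of each complex (y axis, not starting at 0) by group (x axis) in striatum (top) and cortex (bottom). Each point is 1 library, bars are group medians, and arrowheads mark cortex libraries F1 and F4 of the 1.0 mg/kg group. In the striatum the sums of each complex overlap between all groups, and in the cortex the marked libraries are the highest of their group for every complex.

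Between the tissues of the 9 WT mice, 51 members were higher in striatum and 10 were lower, which is 54.8% and 10.8% of the members against 38.1% and 35.1% of the 18014 genes tested (73.3% in either direction). The median log2 difference was 0.10 for the members and 0.02 for all genes. Complex V had 12 higher and 1 lower of 16, complex II 6 and 0 of 8, complex I 22 and 4 of 44, complex IV 8 and 3 of 17, and complex III 3 and 2 of 8. Ndufa1, an X-linked accessory subunit of complex I, had 47.5 to 65.4 CPM in WT striatum (median 53.6) and 33.1 to 39.5 CPM in WT cortex (median 37.4). The tissues did not overlap, and the log2 difference was 0.56 ± 0.038 (SE, adjusted p = 2.32e-18). Ndufb10, an accessory subunit of the membrane arm of complex I, stood at 110.2 to 138 CPM in the striatum and 78.0 to 88.2 CPM in the cortex, again without overlap (0.52 ± 0.035, adjusted p = 3.04e-18). Cox4i2 differed most on the log2 scale, with 2.10 to 3.91 CPM in striatum and 1.25 to 2.04 CPM in cortex (0.85 ± 0.086, adjusted p = 2.76e-12). Other members among the 12 higher ones of smallest p were Uqcrb (0.51), Ndufa3 (0.42), Ndufs4 (0.39), Ndufs3 (0.37), Ndufv3 (0.34), Sdhc (0.32), Ndufaf4 (0.32), Ndufs1 (0.24) and Cox7a2l (0.23). Lower in striatum were Atp5d (-0.31), Uqcrq (-0.25), Cox6a2 (-0.24), Cox8a (-0.22), Ndufb4 (-0.20), Ndufs7 (-0.18), Ndufc2 (-0.17), Ndufb6 (-0.12), Uqcrc1 (-0.12) and Cox7a1 (-0.39). Cox7a1 met the rule of 1 CPM through the cortex alone, so its lower striatal level is partly set by the rule. All 31 members of lowest GC content lay above 0 in this comparison, with a median of 0.13, against 17 of 31 and a median of 0.04 in the third of highest GC content. With offsets for GC content and length the members' median was 0.04, 38 were higher and 16 lower, and 41 of the 61 calls stayed in the same direction (33 higher and 8 lower), while 74.4% of all genes were called. The difference of Ndufa4, an accessory subunit of complex IV, turned negative (-0.11) with these offsets and was called lower. This comparison was not refitted without WT striatum libraries F1 and F5.

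The comparison of Q175 and WT vehicle mice addressed what the Q175 alleles change in each tissue. In the striatum 9 members were higher and 15 lower in Q175 mice, 25.8% of the members, while 45.1% of the 17315 genes tested were called (21.9% higher and 23.2% lower). In the cortex 9 were higher and 2 lower, 11.8% of the members against 30.4% of 17603 genes tested (14% higher and 16.4% lower). On counts, the share called among the members was below that of all genes in both tissues, which did not hold on the FPKM scale in the striatum. The members' median log2 fold change was -0.02 in the striatum and 0.01 in the cortex, against 0.00 and 0.00 over all genes. The calls were small: of the striatal ones only Cox4i2, Cox6b2 and Cox6a2 exceeded 0.3 in size, and of the cortical ones Cox6a2 and Cox6b2. Without WT striatum libraries F1 and F5, 18 members were higher and 9 lower, with a median of 0.03 and 43.4% of all genes called. All 9 higher and 9 of the 15 lower calls stayed, and Cox5b, Cox7a2, Ndufa10, Ndufb9, Ndufs5 and Uqcrb were not called. With GC and length offsets 18 were higher and 13 lower in striatum, with 9 higher and 10 lower calls kept. In that fit 49.4% of all genes were called. With the L number of the library names (meaning not stated in the labels) as a factor, 8 were higher and 12 lower in the striatum and 4 and 1 in the cortex. Of all genes 36.7% and 23.6% were called with this factor in striatum and cortex. Of the 15 lower calls, those of Sdhaf2, Cox7a2, Ndufb9, Ndufs5, Uqcrb, Ndufa10 and Cox5b lay above 0 on the deposited FPKM scale, where all genes together shifted, with a median of 0.11 over all genes tested and 0.10 over the members in the striatum. There 50 members were higher and 5 lower, with 55.4% of all genes called on that scale and 75.3% of all calls higher, against 48.5% on counts. In the cortex the FPKM medians were 0.05 and 0.06, with 26 members higher and 1 lower, 34.8% of all genes called, and 67% of all calls higher against 46% on counts.

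**Figure D2:**
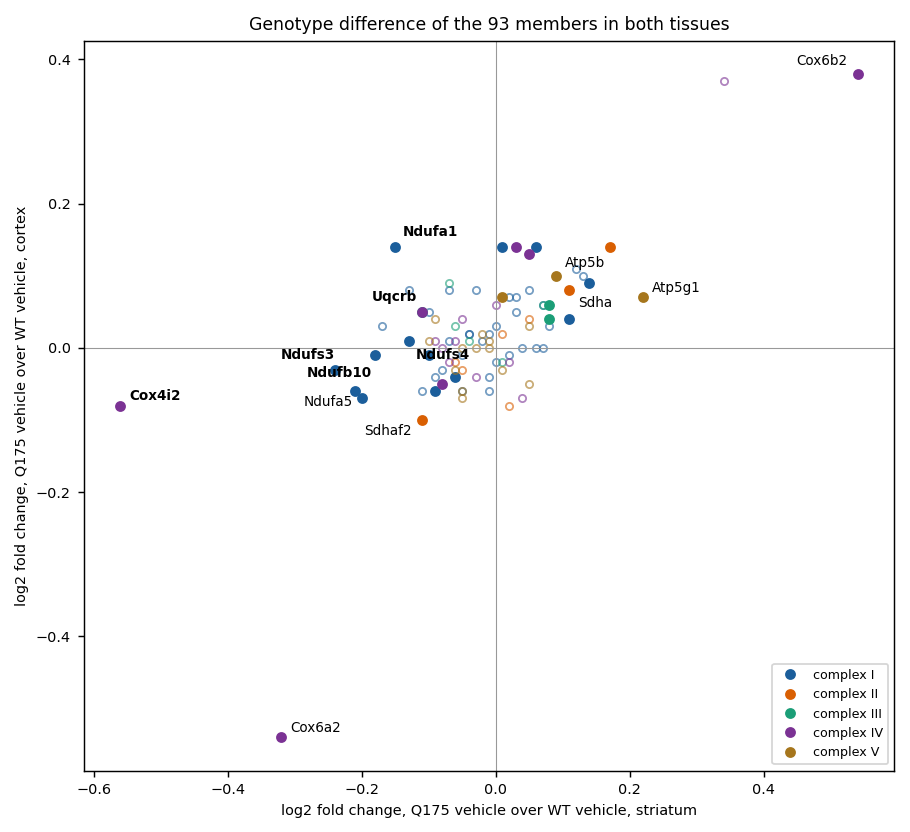
Log2 fold change of Q175 vehicle over WT vehicle for the 93 members, striatum on the x axis and cortex on the y axis. Filled points were called in at least 1 tissue, open points in neither, colours give the complex, and names in bold are the 6 members whose difference was called unlike between the tissues. Most points lie within 0.2 of 0 in both tissues, while Cox6a2 (-0.32 and -0.54), Cox6b2 (0.54 and 0.38) and Cox4i2 (-0.56 and -0.08) lie farther out.

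Of the 44 members of complex I 9 were lower and 2 higher in Q175 striatum, where 23.2% of all genes were lower and 21.9% higher. In the cortex 3 were higher and 0 lower, where 14% and 16.4% of all genes were. The lower ones were 1 of 7 core subunits and 8 of 29 accessory subunits. The median of the 29 accessory subunits was -0.04 in the striatum and 0.01 in the cortex, against 0.00 over all genes. On the FPKM scale complex I as a whole stood at 0.10, beside the shift of 0.11 of all genes.

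Ndufs3 (chromosome 2, 90894634 to 90904827, minus strand, GRCm38), a core subunit of the module that reduces ubiquinone, had 94.5 to 119 CPM in WT striatum, with a median of 106. Q175 vehicle striatum had 87.7 to 94.2 CPM, with a median of 89.1. Every Q175 vehicle library lay below every WT library, and the log2 fold change was -0.24 ± 0.033 (adjusted p = 1.03e-07). In the dosed striatum the medians were 89.5, 89.2 and 91.0 CPM with rising dose, close to the vehicle median. In the cortex Ndufs3 ranged from 78.2 to 86.1 CPM in the WT group and from 78.8 to 82.0 CPM in the Q175 vehicle group, with overlapping groups (-0.03, adjusted p = 0.452). The difference of the genotype effect, striatum minus cortex, was -0.20 ± 0.045 (adjusted p = 0.000617).

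Ndufa5 (chromosome 6, 24518666 to 24528013), an accessory subunit of the same module, had 51.2 to 60.4 CPM in WT striatum and 44.3 to 50.7 CPM in Q175 vehicle striatum. The groups did not overlap (-0.20 ± 0.033, adjusted p = 2.08e-06). Its cortical ranges overlapped, at 41.9 to 46.9 and 40.4 to 44.8 CPM (-0.07, adjusted p = 0.262), and the difference between the tissues was not called (-0.14, adjusted p = 0.0921). Ndufb10 (chromosome 17, 24722060 to 24724478) fell from 110.2 to 138 CPM in WT striatum (median 118) to 96.9 to 112 CPM (median 105), with a small overlap (-0.18 ± 0.034, adjusted p = 2.21e-05). In the cortex its medians were 83.2 and 82.8 CPM (-0.01, adjusted p = 0.941).

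Ndufs4 (chromosome 13, 114287795 to 114388258), an accessory subunit next to the NADH-oxidizing module whose loss in mice gives an encephalopathy like Leigh syndrome, had 54.8 to 63.9 CPM in WT striatum (median 60.5). Q175 vehicle mice had 52.4 to 57.6 CPM (median 55.2), below most WT mice but with overlap (-0.13 ± 0.033, adjusted p = 0.0015). The medians of the dosed striatum were 51.6, 50.3 and 54.2 CPM. In the cortex the medians were 46.0 CPM for WT and 46.9 CPM for Q175 vehicle (0.01, adjusted p = 0.916).

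Ndufa1 moved in opposite directions in the tissues. It was lower in Q175 striatum, where WT mice had 47.5 to 65.4 CPM and Q175 vehicle mice 48.4 to 52.4 CPM (-0.15 ± 0.042, adjusted p = 0.00302). It was higher in Q175 cortex, where WT mice had 33.1 to 39.5 CPM and Q175 vehicle mice 39.1 to 43.3 CPM (0.14 ± 0.053, adjusted p = 0.042). The striatal groups overlapped widely, and in the cortex only their edges met. The cortical call was lost when any of 9 libraries was left out (adjusted p of at most 0.0916, fold change 0.12 to 0.15). The test of the difference between the tissues gave -0.29 ± 0.057 (adjusted p = 0.000123). Of all members tested this way 0 were called higher and 6 lower in striatum relative to cortex (21.3% of all genes were called, 9.64% higher and 11.6% lower). These were Ndufa1, Ndufs3, Ndufb10 (-0.18, adjusted p = 0.0121), Ndufs4 (-0.14, adjusted p = 0.0304), Uqcrb (-0.17, adjusted p = 0.0447) and Cox4i2 (-0.48, adjusted p = 0.00581), and all 6 were also called with GC and length offsets. DESeq2, fitted to the vehicle libraries alone, called 0 higher and 4 lower, with 4 of the 6 calls kept and 19% of all genes called. On the FPKM scale 5 members were called higher and 3 lower in this test, with 3 of the 6 calls kept. There 26.2% of all genes were called, with 73.1% of all calls higher against 45.3% on counts. The test was not refitted without WT striatum libraries F1 and F5.

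The remaining complex I calls were accessory subunits. Ndufb4 fell by 0.21 on the log2 scale in the striatum (adjusted p = 0.000668), with a range of 17.3 to 22.5 CPM for WT and 14.8 to 18.4 CPM for Q175 vehicle. Its processed pseudogene copy Ndufb4c, which had 30.9 CPM on average in the striatum, was lower by the same amount (-0.20, adjusted p = 0.00244), and reads of the pair may have been divided between them, so both values are uncertain. Ndufb9 (-0.10, adjusted p = 0.0213), Ndufs5 (-0.09, adjusted p = 0.026) and Ndufa10 (-0.06, adjusted p = 0.0495) were lower by less. Ndufb9 lost its call without Q175 vehicle F2, WT F1 or WT F5, Ndufs5 without Q175 vehicle F2 or F3 or WT F1, and Ndufa10 without any of 10 libraries. Ndufb6 (0.14, adjusted p = 0.00275) and Ndufc2 (0.11, adjusted p = 0.00508) were higher in the striatum. WT striatum had 32.7 to 43.0 CPM of Ndufb6, with a median of 33.3, and Q175 vehicle striatum 36.9 to 42.4 CPM, with a median of 38.5. In the cortex Ndufb8 (0.14, adjusted p = 0.00772) and Ndufa3 (0.14, adjusted p = 0.0193) were higher. Ndufb8 had 85.3 to 96.0 CPM in WT cortex and 98.0 to 102 CPM in Q175 vehicle cortex, with no overlap.

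Sdha, the catalytic subunit of complex II (chromosome 13, 74322254 to 74350280), was higher in Q175 mice in both tissues. In the striatum WT mice had 388 to 447 CPM (median 423) and Q175 vehicle mice 435 to 460 CPM (median 449). The groups overlapped at the edge, and the log2 fold change was 0.11 ± 0.025 (adjusted p = 0.00051). In the cortex WT mice had 380.5 to 407 CPM and Q175 vehicle mice 404 to 427 CPM (0.08 ± 0.02, adjusted p = 0.00187), with overlap only at the edges. The other subunits were not called in either tissue, with 0.05 and 0.04 for Sdhd, 0.01 and 0.02 for Sdhc and -0.06 and -0.02 for Sdhb in striatum and cortex. Among the assembly factors Sdhaf2, which helps to attach the flavin to Sdha, was lower in both tissues (-0.11, adjusted p = 0.00532, and -0.10, adjusted p = 0.0463). Sdhaf1, which helps to insert the iron-sulfur clusters of Sdhb, was higher in the striatum (0.17, adjusted p = 0.0165) and stood at 0.14 in the cortex (adjusted p = 0.0576). The cortical call of Sdhaf2 was lost when any of 12 libraries was left out.

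In complex III, 2 of 8 members were higher and 1 was lower in Q175 striatum, where 21.9% and 23.2% of all genes were. In the cortex the smallest adjusted p was that of Uqcrc2 (0.06, adjusted p = 0.156), which was not called. Uqcrfs1, the Rieske iron-sulfur protein, rose by 0.08 on the log2 scale (adjusted p = 0.0172), from a median of 81.5 to 85.0 CPM. Uqcrh, the hinge protein that contacts cytochrome c1, rose by 0.08 (adjusted p = 0.0356), from a median of 132 to 140.0 CPM. Uqcrb, a small subunit near the ubiquinone site, had 58.4 to 79.1 CPM in WT striatum and 60.1 to 68.9 CPM in Q175 vehicle striatum. Its ranges overlapped fully (-0.11 ± 0.046, adjusted p = 0.0367). The call of Uqcrb was lost when any of 9 libraries was left out, that of Uqcrh when any of 7 was, and that of Uqcrfs1 without WT F2.

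In complex IV the tissue-restricted isoforms Cox4i2, Cox6b2 and Cox6a2 had the largest called fold changes of the members in striatum, and Cox6a2 and Cox6b2 in cortex. Cox6a2 (heart and muscle isoform, also described in parvalbumin interneurons of mouse brain) fell in both tissues. WT cortex had 4.64 to 6.60 CPM (median 5.49) and Q175 vehicle cortex 3.16 to 4.29 CPM (median 3.87), with no overlap (-0.54 ± 0.093, adjusted p = 1.17e-05). The medians of the dosed cortex were 3.64, 4.04 and 3.69 CPM. In the striatum the ranges were 3.56 to 5.61 and 3.38 to 4.24 CPM, with overlap (-0.32 ± 0.086, adjusted p = 0.00166). All 10 markers of parvalbumin interneurons were lower in Q175 cortex as well (16.4% of all genes were), with a median of -0.29. Their summed level was 1760 to 1915 CPM in WT cortex and 1414 to 1567 CPM in Q175 vehicle cortex, and none of the 10 was at 0. In the striatum 2 of the 10 were lower (median -0.05, with 23.2% of all genes lower), with sums of 2068 to 2431 and 2109 to 2392 CPM. In WT mice the marker sum was thus higher in striatum than in cortex, without overlap. How far the sum follows the number of these cells was not tested, nor was their part in the Cox6a2 difference.

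Cox4i2, which is known from brain pericytes as well as lung, fell in the striatum from 2.10 to 3.91 CPM (median 2.62) to 1.44 to 2.24 CPM (median 1.94). The groups overlapped at the edge, and the log2 fold change was -0.56 ± 0.11 (adjusted p = 2.29e-05). The cortical ranges were 1.25 to 2.04 CPM for WT and 1.21 to 1.83 CPM for Q175 vehicle, with full overlap (-0.08, adjusted p = 0.615). Of 10 pericyte markers 1 was lower in Q175 striatum (median -0.09), where 23.2% of all genes were lower. The summed level of the markers was 266 to 343 CPM for WT and 271 to 320.5 CPM for Q175 vehicle, with none at 0. The part of pericytes in the Cox4i2 difference was not tested. Cox6b2 rose in both tissues, from a median of 1.86 to 2.90 CPM in the striatum (0.54 ± 0.13, adjusted p = 0.000394) and from 1.62 to 2.29 CPM in the cortex (0.38 ± 0.12, adjusted p = 0.0102). Ranges overlapped in both, at 1.43 to 2.70 and 2.32 to 3.30 CPM in the striatum and at 1.35 to 2.09 and 1.68 to 2.53 CPM in the cortex. Cox7a1 was not called, with 0.34 in the striatum (adjusted p = 0.0984) and 0.37 in the cortex (adjusted p = 0.0836), and Ndufa4l2 stood at -0.08 and -0.00.

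The common isoforms of complex IV moved less. Cox6b1 was higher in Q175 cortex, with 136.7 to 150.2 CPM for WT and 152 to 162 CPM for Q175 vehicle, without overlap (0.13 ± 0.043, adjusted p = 0.0152), and stood at 0.05 in the striatum (adjusted p = 0.199). Cox6a1 was higher in the cortex (0.14, adjusted p = 0.0242) and stood at 0.03 in the striatum. Its cortical call was lost without Q175 vehicle F2 or F4 or WT F3. Cox7a2 (-0.08, adjusted p = 0.013) and Cox5b (-0.11, adjusted p = 0.0496) were lower in the striatum, and the call of Cox5b was lost when any of 9 libraries was left out. Cox4i1 (-0.06 and 0.01), Cox8a (0.00 and 0.06), Ndufa4 (-0.07 and -0.02) and Cox7a2l, which helps to join complexes into supercomplexes (-0.03 and -0.04), were not called in either tissue.

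Complex V had 2 of 16 members higher in each tissue and 0 lower. Over all genes 21.9% were higher and 23.2% lower in the striatum, and 14% and 16.4% in the cortex. Atp5b (chromosome 10) had 1152 to 1297 CPM in WT striatum (median 1221) and 1256 to 1340 CPM in Q175 vehicle striatum (median 1300). The groups overlapped (0.09 ± 0.023, adjusted p = 0.000801). In the cortex the ranges were 1056 to 1172 and 1162 to 1209 CPM, meeting at the edge (0.10 ± 0.023, adjusted p = 0.00121). Atp5g1, which encodes subunit c of the rotating ring, had 84.4 to 115 CPM in WT striatum (median 98.9) and 112 to 121 CPM in Q175 vehicle striatum (median 114). The log2 fold change was 0.22 ± 0.045 (adjusted p = 0.000113). Its medians in the dosed striatum were 123, 120.3 and 125 CPM, and in the cortex it was not called (0.07, adjusted p = 0.178). Atp5g3, which encodes the same mature subunit c, stood at -0.02 and 0.02. Atp5a1, the alpha subunit, was higher in the cortex by 0.07 (adjusted p = 0.0252), a call that was lost without Q175 vehicle F1 or F3 or WT F3.

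**Figure D3:**
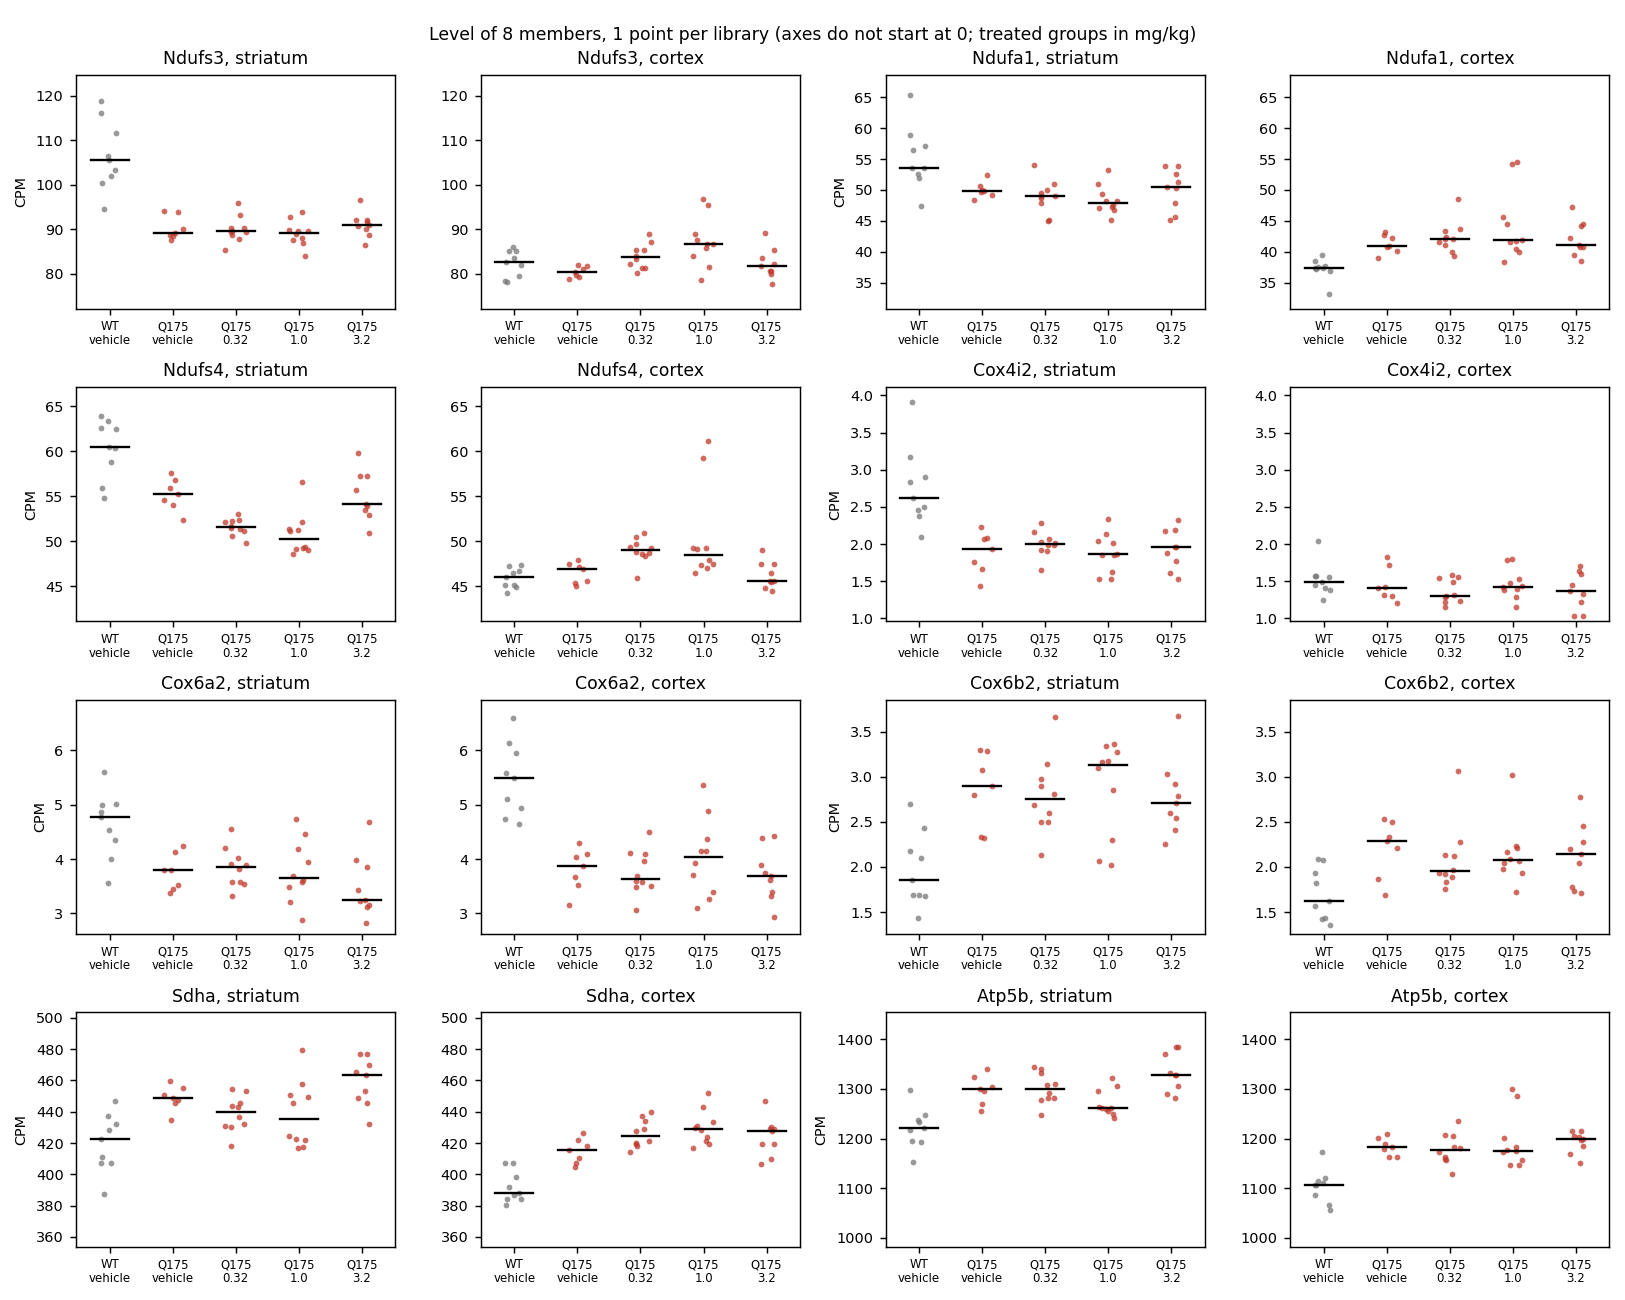
CPM of 8 members (y axes, not starting at 0) by group (x axes) in striatum and cortex, 1 point per library, with bars at the group medians. In striatum Ndufs3 shows every Q175 vehicle library (87.7 to 94.2 CPM) below every WT library (94.5 to 119 CPM), and in cortex Cox6a2 does the same (3.16 to 4.29 against 4.64 to 6.60 CPM).

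Lists of related genes were counted the same way. Over all genes 21.9% were higher and 23.2% lower in Q175 striatum, and 14% and 16.4% in Q175 cortex. The 13 respiratory chain genes of mitochondrial DNA were lower in Q175 striatum in 13 of 13 cases, with a median of -0.31, and in Q175 cortex in 3 of 13, with a median of -0.12. Their summed level was 97220 to 120200 CPM in WT striatum and 85530 to 102100 CPM in Q175 vehicle striatum, and 67790 to 82420 and 64920 to 75410 CPM in the cortex. The nuclear members thus had a median of -0.02 in the striatum where the mitochondrial genes had -0.31. Of 19 regulators of mitochondrial biogenesis 2 were higher and 4 lower in the striatum, and likewise in the cortex. In the striatum Gabpb2 (-0.25, adjusted p = 5.15e-05) and Gabpb1 (-0.19, adjusted p = 0.00153), the partners of the ETS factor Gabpa, were lower, as was the coactivator Ppargc1b (-0.32, adjusted p = 0.00177), while the mitochondrial deacetylase Sirt3 was higher (0.17, adjusted p = 0.00255). The coactivator Ppargc1a was lower in Q175 cortex (-0.18, adjusted p = 0.000135) and stood at 0.09 in striatum (adjusted p = 0.139), and this difference between tissues was called (0.25, adjusted p = 0.00197). Nrf1 was higher in cortex (0.11, adjusted p = 0.0378) and stood at -0.04 in striatum, and the difference between the tissues was called (-0.15, adjusted p = 0.0174). Gabpa (-0.02 and 0.02), Esrra (-0.16 and -0.08) and Tfam (0.08 and -0.02) were not called in striatum or cortex.

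Of 39 further assembly factors tested, 9 were higher and 7 lower in the striatum and 3 and 5 in the cortex. These counts and those of the lists below are to be read beside the 45.1% and 30.4% of all genes called in striatum and cortex. Lyrm7, a chaperone of the Rieske protein, fell by 0.42 and 0.40 on the log2 scale in striatum and cortex, and Ttc19, also of complex III, by 0.29 and 0.12. Sco2, which delivers copper to complex IV, rose by 0.47 and 0.33. Of 18 electron carriers and ubiquinone genes 4 were higher and 3 lower in each tissue, with Etfdh at 0.22 and 0.18 and Coq10b at -0.46 and -0.30. Of 19 genes of the tricarboxylic acid cycle and pyruvate entry 6 were higher and 5 lower in the striatum and 1 and 2 in the cortex, and of 17 glycolysis genes 4 and 4 in the striatum and 5 and 4 in the cortex. Their medians lay between -0.00 and 0.04. Of 12 medium spiny neuron markers 11 were lower in Q175 striatum (median -1.21) and 12 in Q175 cortex (median -0.88), and of 10 astrocyte markers 8 and 7 were lower. Of 10 oligodendrocyte markers 5 were lower in each tissue, and in the cortex 2 were higher. Their summed level was 9545 to 13620 CPM in WT striatum and 8025 to 10350 CPM with Q175. Of 10 microglia markers 4 were higher in the striatum and 3 in the cortex, and of 10 endothelial markers 4 were lower in the striatum. Of 10 excitatory neuron markers 5 were lower in the cortex, where their summed level was 1844 to 2063 CPM in WT and 1602 to 1782 CPM in Q175 vehicle libraries, without overlap. The part of these cell types in the member differences was not tested.

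The dose comparisons addressed what PF-02545920 changes in Q175 mice. The 3 doses share the Q175 vehicle mice, so each is given by its own values. In the striatum 7 members were higher and 0 lower at 0.32 mg/kg, against 2.17% and 0.323% of all genes tested (2.49% in either direction). At 1.0 mg/kg 0 were called, where 1.07% of all genes were (0.797% higher and 0.277% lower), with 22 members at an unadjusted p under 0.05 and 5 called lower by DESeq2. At 3.2 mg/kg 0 were called, where 1.48% of all genes were (1.33% higher and 0.15% lower), with 1 member at an unadjusted p under 0.05 and 0 called by DESeq2. In the cortex 13 were higher and 1 lower at 0.32 mg/kg, against 5.18% and 4.98% of all genes (10.2% in either direction). At 1.0 mg/kg 42 were higher and 0 lower, against 10.9% and 9.8% (20.7% in either direction). At 3.2 mg/kg 0 were called, as were 0% of all genes, with 5 members at an unadjusted p under 0.05 and 0 called by DESeq2. With the L number as a factor the counts were 1 and 0 in striatum at 0.32 mg/kg, 2 and 0 in cortex at 0.32 mg/kg, and 33 and 0 in cortex at 1.0 mg/kg. Of all genes 0.468%, 1.86% and 14.4% were called in these 3 cases. In striatum at 1.0 mg/kg 0 members and 0% of all genes were called with this factor.

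In the striatum the 7 members called at 0.32 mg/kg were Uqcrq (0.28, adjusted p = 0.0185), Uqcr11 (0.27, adjusted p = 0.0387) and Uqcrc1 (0.13, adjusted p = 0.0459) of complex III, Ndufc2 (0.12), Ndufaf8 (0.29) and Ndufs7 (0.26) of complex I, and Atp5d (0.22) of complex V. Uqcrq, a small subunit, had 44.1 to 57.7 CPM in Q175 vehicle striatum and 54.7 to 64.0 CPM at 0.32 mg/kg, with overlap, and its median was 54.7 CPM at 1.0 mg/kg and 43.8 CPM at 3.2 mg/kg. Each of the 7 calls was lost when 1 of several libraries was left out: 0 members were called higher without Q175 vehicle F1, F2 or F3, 1 without dosed M3, M5 or F5 or Q175 vehicle F5, 2 without dosed F1 or Q175 vehicle M1 or F4, and 4 without dosed M1 or M4. With the GC and length offsets 2 were higher (Uqcrq and Ndufc2) and 1 lower, and over all genes the calls fell to 2 higher and 6 lower (0.0462% of those tested), the 2 higher ones being these members. At 1.0 mg/kg the members of smallest p were Uqcrh (-0.10, adjusted p = 0.061) and Ndufs4 (-0.11, adjusted p = 0.0645). Without dosed M2 1 member was higher and 7 lower at that dose. At 3.2 mg/kg they were Cox4i1 (0.08, adjusted p = 0.578) and Atp5g1 (0.09, adjusted p = 0.664).

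In the cortex at 0.32 mg/kg the calls were led by Cox7c, a small subunit of complex IV, with 51.1 to 55.8 CPM in Q175 vehicle mice and 60.5 to 72.5 CPM at that dose. The groups did not overlap (0.31 ± 0.057, adjusted p = 0.00076), and Cox7c was still called with GC and length offsets (0.18, adjusted p = 0.0216). Its median was 58.5 CPM at 1.0 mg/kg and 53.1 CPM at 3.2 mg/kg. Others were Atp5c1, the gamma subunit of complex V (0.12, adjusted p = 0.00964), Cox7a2l (0.12, adjusted p = 0.0134), Atp5mpl, a small subunit of complex V (0.19, adjusted p = 0.0144), and Atp5f1, a stalk subunit (0.12, adjusted p = 0.0179). With the offsets these 4 were not called, at 0.04 for Atp5c1, 0.07 for Cox7a2l, 0.09 for Atp5mpl and 0.08 for Atp5f1. Atp5d, the delta subunit, was lower (-0.18, adjusted p = 0.0309), a call lost when any of 8 libraries was left out, and with the offsets (-0.12, adjusted p = 0.0746). The count of higher members fell to 6 without Q175 vehicle F2 and to 8 without Q175 vehicle F4. At 3.2 mg/kg the members of smallest p were Uqcrc2 (0.10, adjusted p = 0.486) and Atp5d (-0.14, adjusted p = 0.642).

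In the cortex at 1.0 mg/kg the members called higher included 16 of 44 in complex I, 4 of 8 in complex II, 4 of 8 in complex III, 8 of 17 in complex IV and 10 of 16 in complex V. The members' median was 0.11, against 0.00 over all genes. Those of smallest p were Ndufa4 (0.20, adjusted p = 0.000438), Atp5c1 (0.15, adjusted p = 0.000539), Ndufb9 (0.17, adjusted p = 0.000681), Ndufv2 (0.20, adjusted p = 0.000719) and Atp5mpl (0.25, adjusted p = 0.000863). Without the standing-apart libraries F1 and F4 14 members were higher, all of them among the 42, and 28 calls were lost. Of all 17575 genes tested in that fit 12.2% were called, 1076 higher and 1062 lower. The median was then 0.03, and Atp5d (-0.17, adjusted p = 0.0355) and Ndufb2 (-0.16, adjusted p = 0.0425) were called lower. The 5 genes named above were still called higher without these libraries, at 0.13 for Ndufa4, 0.10 for Atp5c1, 0.12 for Ndufb9, 0.11 for Ndufv2 and 0.14 for Atp5mpl (largest adjusted p = 0.00566). With GC and length offsets Ndufb9 (0.13) and Atp5mpl (0.12) were still called, while Ndufa4 (0.03, adjusted p = 0.498), Atp5c1 (0.06, adjusted p = 0.0505) and Ndufv2 (0.06, adjusted p = 0.122) were not. For Ndufa4 the highest value in the group was 208 CPM, where Q175 vehicle cortex had 151 to 159 CPM, and the group's median was 171 CPM. At 0.32 mg/kg, a comparison to which F1 and F4 do not belong but whose fit they share, 32 members were higher and 1 lower without them, with 15.8% of all genes called. With GC and length offsets 4 were higher and 0 lower at 0.32 mg/kg, with 3 of the 14 calls kept and 1.11% of all genes called. The counts at 1.0 mg/kg were 15 and 0, with 14 of the 42 kept and 4.31% of all genes called.

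**Figure D4:**
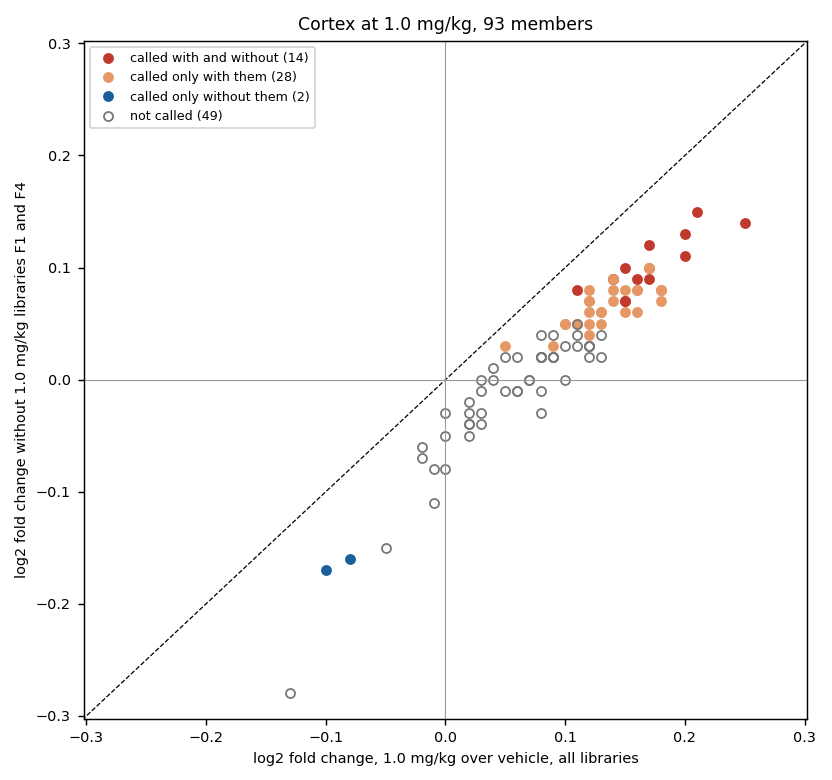
Log2 fold change of 1.0 mg/kg over vehicle in the cortex for the 93 members with all libraries (x axis) and without libraries F1 and F4 (y axis). The dashed line marks equal values, and colours give the calls in either fit. Every point lies below the line, with 14 members called in both fits, 28 only with the 2 libraries and 2 only without them.

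Except in the striatum at 3.2 mg/kg, the dose differences of the members moved with their GC content. Over the 93 members the correlation of log2 fold change with GC content was 0.68, 0.68 and 0.06 in the striatum with rising dose, and -0.57, -0.54 and -0.56 in the cortex with rising dose. Over all genes tested it was 0.42 in the striatum and -0.38 in the cortex at 0.32 mg/kg. The points share their libraries and the same vehicle mice, so these values are a description. In the striatum at 0.32 mg/kg the 31 members of lowest GC content (39.48% to 49.06%) had a median of -0.04 and the 31 of highest (53.55% to 61.12%) 0.09. In the cortex at 0.32 mg/kg the order was opposite, with 0.10 and 0.02, and at 1.0 mg/kg 0.13 and 0.05. With the offsets, which by construction remove a smooth trend with GC content and length, the correlations became 0.01, 0.11 and 0.04 in the striatum and 0.06, 0.10 and 0.03 in the cortex. The genotype differences were less tied to GC content, with correlations of -0.12 in the striatum and 0.19 in the cortex. The mitochondrial genes were higher in 13 of 13 cases in the cortex at 0.32 and at 1.0 mg/kg (medians 0.25 and 0.22), and 0 of 13 with the offsets (medians 0.07 and 0.00). Of all genes 5.18% and 10.9% were higher there without offsets. The count at 1.0 mg/kg includes libraries F1 and F4. The median summed level of these genes in the cortex was 70770 CPM with vehicle and 82350, 74670 and 68440 CPM with rising dose. In the striatum it was 91250 CPM with vehicle and 81880, 86830 and 88940 CPM with rising dose. Each dosed striatal range (73260 to 90830, 75360 to 89890 and 73950 to 102400 CPM) overlapped that of vehicle (85530 to 102100 CPM).

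**Figure D5:**
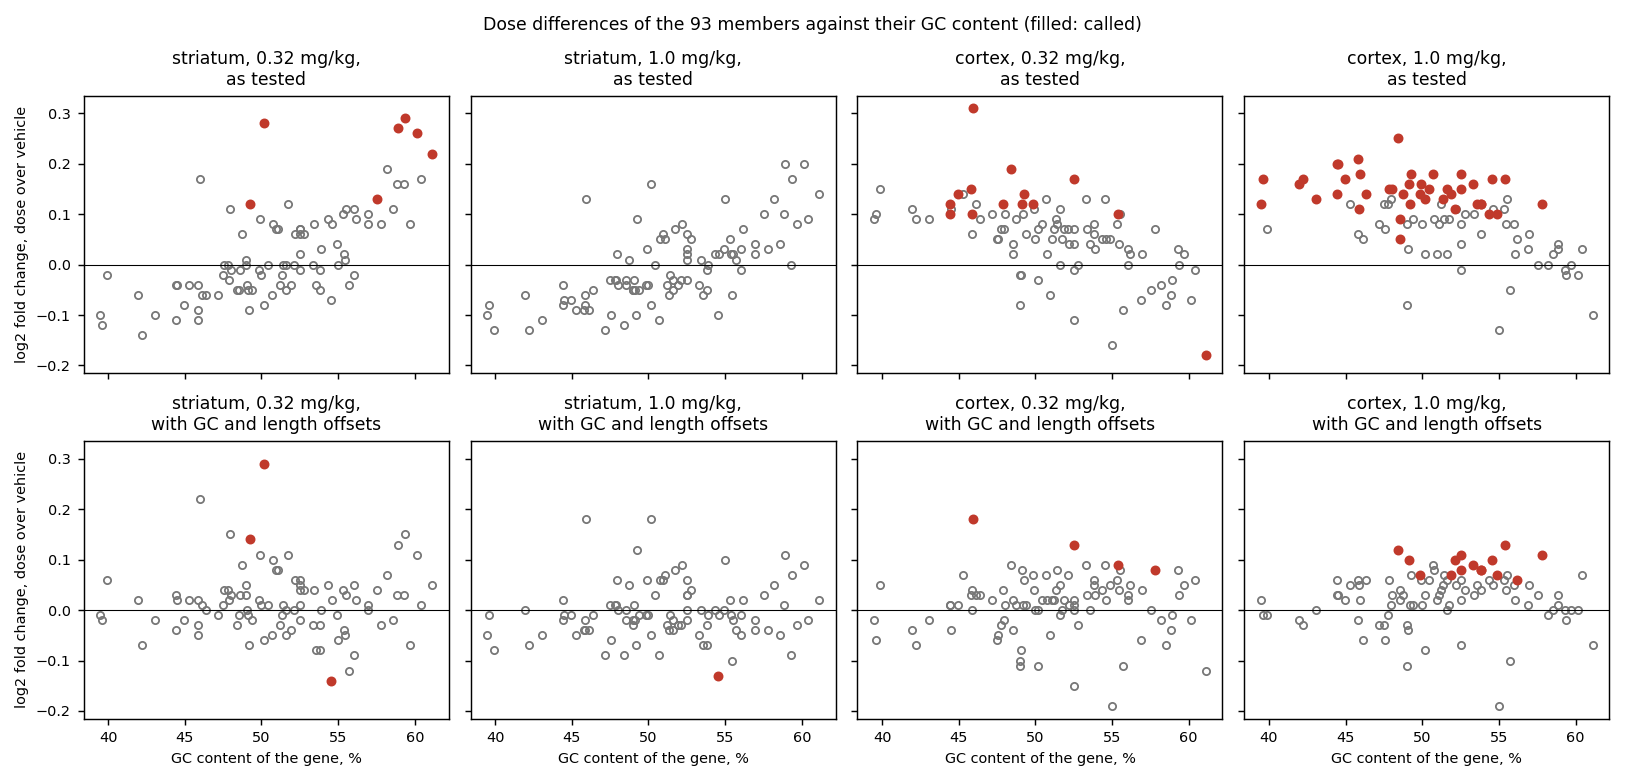
Log2 fold change of dosed over vehicle Q175 mice (y axis) against GC content of the gene in percent (x axis) for the 93 members, as tested (top) and with GC and length offsets (bottom). Filled points were called. The points rise with GC content in the striatum (correlation 0.68 at both doses) and fall in the cortex (-0.57 and -0.54), and are flat with the offsets.

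The dose effects were also compared between the tissues of the same mice, a test added after the data were examined. At 0.32 mg/kg 7 members were higher and 25 lower in striatum relative to cortex, against 11.2% and 10.8% of all genes (22% in either direction), and at 1.0 mg/kg 0 and 37, against 9.32% and 9.49% (18.8% in either direction). At 3.2 mg/kg 0 were called by edgeR, where 1.17% of all genes were (1.1% higher and 0.0666% lower), with 0 members at an unadjusted p under 0.05 and 0 called by limma on the FPKM scale. At 0.32 mg/kg Atp5d (0.39, adjusted p = 0.00357) and Uqcrq (0.31, adjusted p = 0.0054) were higher and Uqcrc2 (-0.20, adjusted p = 0.00232) lower. At 1.0 mg/kg Ndufa4 (-0.26, adjusted p = 0.000336) and Atp5mpl (-0.35, adjusted p = 0.000383) were lower. With the offsets the counts were 2 and 9 at 0.32 mg/kg, with 6 of the 32 calls kept and Uqcrc2 lost. At 1.0 mg/kg they were 0 and 15, with 12 of the 37 kept and Ndufa4 lost. Of all genes only 2.05% and 2.15% were called with the offsets at these doses. Without mice F1 and F4 of the 1.0 mg/kg group 22 were lower at that dose, all of them among the 37. In that fit 7.05% of all genes were called.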

How the data were processed

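The deposited tables hold expected counts per gene and FPKM values per gene for each library, per the file headers. The submitters' processing notes name CASAVA 1.8.2 without its role. For the quantifier, genome build and strand setting, the labels and headers name none (not given in the sources used here). Expected counts as deposited (80.8% of them whole) were rounded. FPKM values as deposited were used for levels between genes and as an alternative. GENCODE M21 (GRCm38), which may not be the authors' build, named 36723 of 38561 IDs, holding 99.74% of counts. edgeR 4.0.16 (R 4.3.3; TMM, filterByExpr, quasi-likelihood F test) was fitted per tissue on 45 libraries with arm and sex, and on 90 libraries with mouse as a block for tissue effects. Libraries of 1 mouse deviated together (median correlation 0.385, lowest 0.12 over 45 mice). P-values were adjusted by Benjamini-Hochberg over all genes tested, and a gene was called at an adjusted p under 0.05. Fold changes are log2, with SE. Within a tissue each library is a separate mouse.

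Alternatives were DESeq2 1.42.0, no count filter, GC and length loess offsets, limma 3.58.1 on log2(FPKM + 0.1) and log2(FPKM + 1), no sex term, the L number as a factor, other sample sets, the replicate block and leaving out each library. Leaving out the libraries that stood apart and the dose by tissue test were chosen after seeing the data. The genes named were every called member where at most 24 (genotype, WT tissues) or 10 (other comparisons) were called, otherwise the 12 or 5 of smallest p in each direction, or the 2 of smallest p where none was. To these came the members of largest fold change in each complex, the complex IV and Atp5g isoforms, Sdha to Sdhd, 5 regulators and up to 4 genes of other lists. Ndufb2, Ndufaf3 and Ndufb4c were named after their values were seen. The members and lists were chosen with earlier results of these data known. Fits were tested on simulated data. Depth limits the precision of low genes such as Cox4i2 and Cox6b2.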

Additional observations from a re-analysis of the deposited data

Results flagged for a closer look

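Of 160 groups of mice examined for a sample far from the others, 10 held one, and chance alone gives about 1 in 20 groups. In the striatum, 1.0 mg/kg M2 stood high for Ndufs4 (56.5 CPM) and Uqcrb (66.2 CPM). In the cortex, WT M4 was low for Ndufa1 (33.1 CPM) and WT F2 high for Cox4i2 (2.04 CPM). At 0.32 mg/kg in the cortex, M4 was high for the complex IV sum (2345 CPM), Ndufa1 (48.6 CPM) and Cox6b2 (3.07 CPM) and low for Uqcrb (47.4 CPM), and M3 was low for Ndufs4 (45.9 CPM). Cortex 1.0 mg/kg F1 was high for Cox6b2 (3.02 CPM).

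The genotype effect was called unlike between the tissues, striatum minus cortex on the log2 scale, for Ndufa1 (-0.29), Ndufs3 (-0.20), Cox4i2 (-0.48), Ndufb10 (-0.18), Ndufs4 (-0.14) and Uqcrb (-0.17). The dose effect at 0.32 mg/kg was called unlike for Sdhaf4 (-0.25), Ndufb3 (-0.21), Atp5d (0.39), Ndufs7 (0.32), Uqcr11 (0.28), Uqcrq (0.31), Uqcrb (-0.23), Uqcrh (-0.18), Uqcrc2 (-0.20) and Uqcrc1 (0.18). At 1.0 mg/kg it was called unlike for Atp5mpl (-0.35), Uqcrb (-0.29), Cox7a2l (-0.17), Ndufa4 (-0.26) and Ndufa5 (-0.28). With GC and length offsets 2.05% and 2.15% of all genes were called at 0.32 and 1.0 mg/kg. There 6 of the 32 calls at 0.32 mg/kg and 12 of the 37 at 1.0 mg/kg were kept. Of the genes named here these were Atp5d and Uqcrq at 0.32 mg/kg and Atp5mpl and Ndufa5 at 1.0 mg/kg, and the others were lost.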

How the results depend on the processing

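Of 5737 alternative values for 336 member results, 5283 kept their direction and side of the threshold, 345 were no longer past it, 86 were newly past it and 23 reversed, and the cause was not tested. Members called higher and lower in Q175 striatum (9 and 15) were 18 higher with GC and length offsets, 50 and 5 on either FPKM scale, 9 lower with no filter, 9 lower with only the vehicle libraries, 15 and 29 with 4 Q175 arms averaged, and 18 and 9 without WT F1 and F5. In Q175 cortex (9 and 2) they were 21 higher with offsets, 26 and 1 on FPKM, 4 and 1 with the L number, 1 lower with no filter, 17 higher with only the vehicle libraries, 38 higher with 4 arms averaged and 16 higher without 1.0 mg/kg F1 and F4. With a replicate block 3 were higher and 7 lower in striatum and 14 higher in cortex. Same-numbered mice share only a number (lowest correlation -0.19 in striatum and 0.023 in cortex, 0 of 7 closest to their own number in each), so this block is not a pairing. Between no filter and 4 arms averaged, the share of all genes called ran from 27.7% to 58.1% in Q175 striatum. In Q175 cortex it ran from 18.4% to 49.5%. At 0.32 mg/kg in striatum (7 and 0) there were 1 higher with no filter, 2 and 1 with offsets, 0 higher without the sex term, 1 higher with the L number and 1 lower with DESeq2. Of all genes 0.509%, 0.0462%, 0.364%, 0.468% and 3.86% were called in these fits, in that order. At 1.0 mg/kg in striatum (0 and 0) DESeq2 gave 5 lower and offsets 1 lower. In cortex at 0.32 mg/kg (13 and 1) offsets gave 4 and 0, the L number 2 and 0, and leaving out 1.0 mg/kg F1 and F4 32 higher. In cortex at 1.0 mg/kg (42 and 0) offsets gave 15 and leaving out F1 and F4 14 higher and 2 lower. Between WT tissues 16 were lower with offsets and 16 on FPKM. The genotype by tissue counts were 5 higher and 3 lower on FPKM, and 0 higher and 4 lower with DESeq2. The dose by tissue counts were 2 and 9 with offsets at 0.32 mg/kg, and 15 lower with offsets and 22 lower without the mice at 1.0 mg/kg. Of all genes 2.05%, 2.15% and 7.05% were called in these fits, in that order. Leaving out 1 library gave 8 to 13 higher and 10 to 19 lower in Q175 striatum, 6 to 12 and 1 to 2 in Q175 cortex, 0 to 8 and 0 to 2 in striatum at 0.32 mg/kg, 0 to 1 and 0 to 7 at 1.0 mg/kg, 6 to 16 and 0 to 2 in cortex at 0.32 mg/kg, 31 to 50 and 0 at 1.0 mg/kg, and 0 at 3.2 mg/kg in both tissues. Reversed on FPKM in Q175 striatum were Sdhaf2 (0.01), Cox7a2 (0.04), Ndufb9 (0.02), Ndufs5 (0.03), Uqcrb (0.01), Ndufa10 (0.04), Cox5b (0.01), Cox7a2l (0.09) and Atp5g3 (0.10). Others that reversed were Ndufa4 in Q175 cortex with 4 arms averaged (0.08), Uqcrb in cortex at 1.0 mg/kg with offsets (-0.03), Ndufa4 between WT tissues with offsets (-0.11), and Cox4i1 (-0.11) and Ndufa4 (0.03) at 0.32 mg/kg by tissue with offsets.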
